A study of Drosophila melanogaster with 56 samples.

Results

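The dosage compensation complex of *Drosophila melanogaster*, also called the male-specific lethal (MSL) complex, was examined through its 7 genes: the long noncoding RNA genes *lncRNA:roX1* and *lncRNA:roX2* (below *roX1* and *roX2*) and the protein genes *msl-2*, *msl-1*, *msl-3*, *mof* and *mle*. The genes were picked by symbol from a table of 17490 genes. All 7 passed the filter on low counts, which kept 15675 genes. In fruit flies the complex forms in males, settles along the single male X chromosome and raises transcription there, where the histone acetyltransferase MOF acetylates lysine 16 of histone H4. MSL2 binds DNA and is the subunit whose protein is restricted to males, because in females the RNA-binding protein Sxl keeps *msl-2* RNA from being spliced and translated normally. MSL1 is the scaffold on which MSL2, MSL3 and MOF assemble, MSL3 reads methylated histone H3, and the helicase MLE remodels the roX RNAs so that they can join the complex.

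RNA was sequenced from whole mated flies, 3 to 5 days old, in pools of 30 flies of 1 sex and 1 line. The flies were made to study the odorant binding protein genes *Obp50a* to *Obp50d*, which no gene described here belongs to. In all 8 genotypes the native cluster had been replaced by genome editing in the Canton S (B) background and a version of it put back, so every group carries the edited locus with its attR and LoxP remnants. Obp50Pos carried the intact cluster. In Obp50a, Obp50b, Obp50c and Obp50d the paralog of that name was functional and premature stop codons closed the others. Obp50cBCD carried functional *Obp50c* beside a missense *Obp50b* allele named CD, Obp50NegBCD carried the CD allele with the other paralogs closed, and Obp50Neg had every paralog closed. The 14 lines gave 2 per genotype, except that Obp50Pos came from line 8 and Obp50d from line 7 alone, so that genotype and line cannot be told apart there. Of 56 libraries, 54 were used (28 male, 26 female), after leaving out the 2 female libraries that the study also left out. Female Obp50Pos then had 1 library, female Obp50cBCD 3, both sexes of Obp50d and male Obp50Pos 2, and every other group 4.

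Depth lay between 14638498 and 53517693 counts per library (median 26655184). Sex labels were checked against marker transcripts. Levels are given in CPM, counts scaled to the library total with TMM factors. Accessory gland transcripts (4 of 5 listed genes measured) summed to between 2250 and 6120 CPM in males, against between 2.3 and 55.6 CPM in females. Yolk protein transcripts (3 of 3) summed to between 12.2 and 2400 CPM in males, against between 7680 and 39200 CPM in females. Yolk transcripts exceeded 100 CPM in 7 of the male libraries, and accessory gland transcripts exceeded 40 CPM in 3 of the female libraries. The male Obp50cBCD library J3_S53 stood apart, with the lowest depth and the lowest male level of every member but *mof*. These 11 libraries were kept. The mean differences between the sexes and the calls in single genotype contrasts are also given without them. Ranges, level orders, ratios, line means and correlations include them unless stated. The labels do not say whether the libraries of a line came from separate cultures, so that p-values measure the spread between these libraries. In whole flies, fewer cells of a type and less RNA per cell cannot be told apart.

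In the authors' annotation (dmel r6.13) *roX1* (FBgn0019661) spans 3857230 to 3862697 and *roX2* (FBgn0019660) 11579065 to 11580432 on chromosome X, on the minus and the plus strand. *mof* (FBgn0014340), on the minus strand, is the other X-linked member, from 5873840 to 5876853. *msl-1* (FBgn0005617, 18683720 to 18688800) and *msl-2* (FBgn0005616, 3462218 to 3466112) lie on the minus strand of 2L. *msl-3* (FBgn0002775) lies on 3L from 7123213 to 7125533 and *mle* (FBgn0002774) on 2R from 5974857 to 5980778, both on the minus strand. The counts ignored strand. The exons of *roX1* share 392 bases (7.17% of their length) with *ec* on the other strand, and those of *msl-3* share 85 bases (4.31%) with *form3*. Reads in such shared stretches cannot be given to 1 gene. *ec* was at 23.3 ± 3.59 CPM in males (SD, n = 28) and 22 ± 6.53 CPM in females (SD, n = 26), a difference that was not called (adjusted p = 0.897, edgeR). *form3* was higher in males (188 ± 25.8 against 47 ± 16.1 CPM, SD, n = 28 and n = 26).

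The first question was how the 7 RNAs differ between males and females. In males 3 members were higher (*roX1*, *roX2* and *msl-2*), 3 were lower (*msl-1*, *msl-3* and *mof*), and *mle* did not pass the test. Members were called at an adjusted p under 0.05 in edgeR's quasi-likelihood test, on the mean difference over the 8 genotypes. In whole flies of opposite sex most genes pass this test: 43.6% of the 15675 genes were called higher in males and 39.4% lower in males, so that a call alone says little about a member. The size sets the roX RNAs apart from the other members. *roX1* had the larger difference, exceeded in size by 7.56% of all genes, and *roX2* was exceeded by 12%. The other members were exceeded by between 31.1% (*msl-2*) and 95.6% (*mle*) of genes. The median size over the members was 1.45 on the log2 scale, beside 1.08 over all genes.

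*roX1* and *roX2* are X-linked noncoding RNAs that can stand in for each other in the complex. *roX1* ranged from 507 to 1558 CPM (median 1170) in male libraries, against 11.4 to 40.2 CPM (median 21.7) in female libraries. Every male library lay above every female library. The mean difference was 54.2-fold (log2 5.76 ± 0.164 SE, adjusted p = 9.42e-31, edgeR). *roX1* made up between 0.0763% and 0.172% of all counts in a male library. In females it stood at between 0.974% and 3.43% of the male median. This share was higher than that of the accessory gland transcripts in 26 of 26 female libraries (0.049% to 1.19% of their male median), and higher than that of the testis transcripts in 26 of 26 (0.0117% to 2.22%). The margin was narrow in library 17_S9, which had the highest testis share (2.22%) and a *roX1* share of 2.34%.

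*roX2* lay well below *roX1* in both sexes. It ranged from 10.6 to 62.3 CPM (median 44.7) in males, against 0.239 to 5.4 CPM (median 2.21) in females. The sexes did not overlap, and the lowest male value came from J3_S53. The mean difference was 22.2-fold (log2 4.47 ± 0.216 SE, adjusted p = 4.04e-23, edgeR). In female libraries *roX2* rested on between 6 and 160 counts (median 48), so that its values there carry a large counting error.

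**Figure D1:**
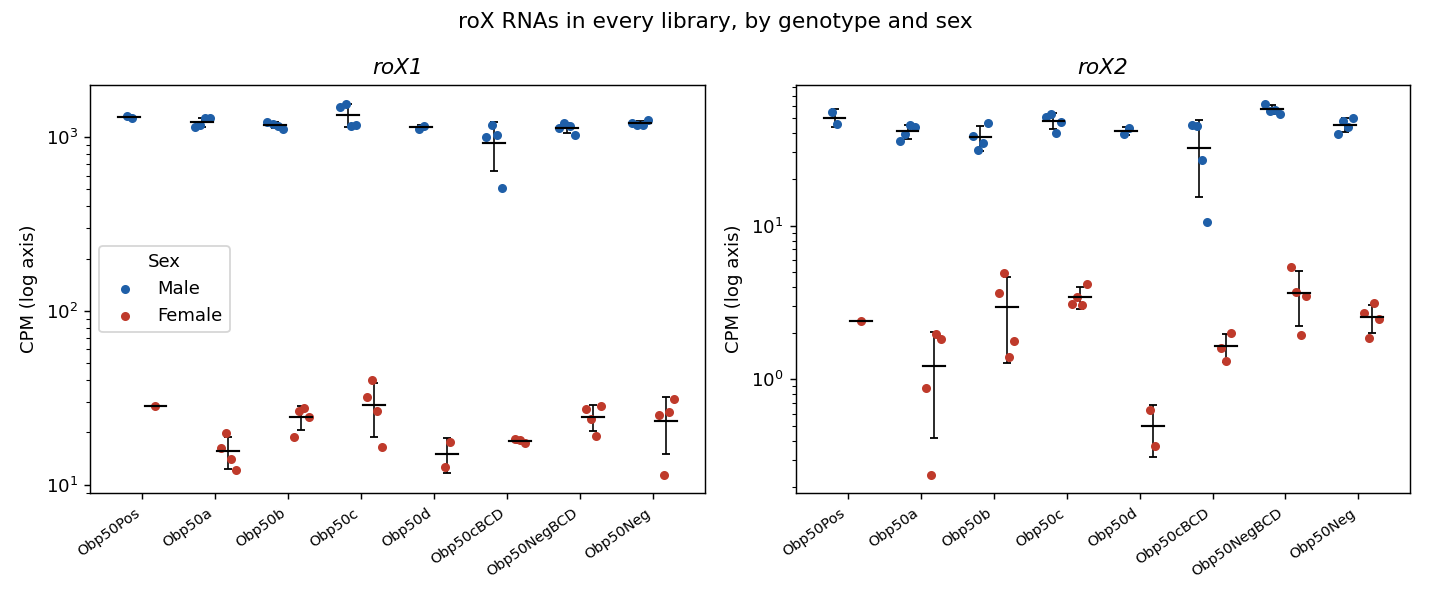
*roX1* (left) and *roX2* (right) in CPM on a log axis, for each of the 8 genotypes, with a point per library (male blue, female red), the group mean as a bar and its SD as whiskers. Every male library lies above every female library for both RNAs; the male Obp50cBCD library at 507 CPM of *roX1* and 10.6 CPM of *roX2* is J3_S53, and the female Obp50d pair is low for *roX2*.

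*msl-2*, which encodes the subunit limited to males, was the protein gene with higher RNA in males. Its level ran from 22.9 to 37.4 CPM (median 29.4) in males, against 5.5 to 11.6 CPM (median 8.85) in females. No male library reached down to the female range. The difference was 3.3-fold (log2 1.72 ± 0.0733 SE, adjusted p = 3.86e-25, edgeR). *msl-2* RNA was present in every female library, with between 87 and 321 counts.

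The subunit genes *msl-3* and *mof* were lower in males without overlap. *msl-3* ran from 13.3 to 26.8 CPM (median 17.5) in males, against 35.9 to 70.6 CPM (median 48.2) in females. This is a 2.74-fold lower level in males (log2 -1.45 ± 0.0588 SE, adjusted p = 6.78e-26, edgeR). The highest male value, 26.8 CPM, came from the Obp50b library 59_S21, which also held yolk transcripts (1558 CPM). *mof*, the acetyltransferase gene, ran from 10.6 to 19.8 CPM (median 14.8) in males, against 21.2 to 43.3 CPM (median 32.5) in females. Its level was 2.11-fold lower in males (log2 -1.08 ± 0.0673 SE, adjusted p = 3.6e-19, edgeR). The gene is X-linked, as are *roX1* and *roX2*.

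*msl-1*, the scaffold gene, was lower in males on average, but its ranges overlapped. It ran from 26.8 to 66.5 CPM (median 50.3) in males, against 40.9 to 201 CPM (median 127) in females, and 5 of 26 female libraries lay inside the male range. The highest male values came from 49_S29 (66.5 CPM), 36_S28 (64.1 CPM) and 59_S21 (63.4 CPM). These libraries also held yolk transcripts (1680, 966.5 and 1558 CPM), whose part in the overlap was not tested. Outside the 11 libraries named above, the highest male value was 53.8 CPM (35_S27), and female library 33_S25 (40.9 CPM) lay below it. The mean difference was 2.43-fold (log2 -1.28 ± 0.137 SE, adjusted p = 1.43e-11, edgeR). *mle*, the helicase gene, ran from 35 to 71.3 CPM (median 59.9) in males, against 43.4 to 66.8 CPM (median 57.3) in females. All 26 female libraries lay inside the male range, and the difference was not called (log2 0.09 ± 0.058 SE, adjusted p = 0.168, edgeR). The median difference of all genes was 0.10 on the same scale and rose to 0.30 with DESeq2's size factors in edgeR, under which *mle* stood at 0.29 and was called (adjusted p = 1.02e-06). Relative to the median of all genes, *mle* was at -0.01 in both. Male and female libraries did not overlap for 5 of the 7 members, beside 32.3% of all genes.

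**Figure D2:**
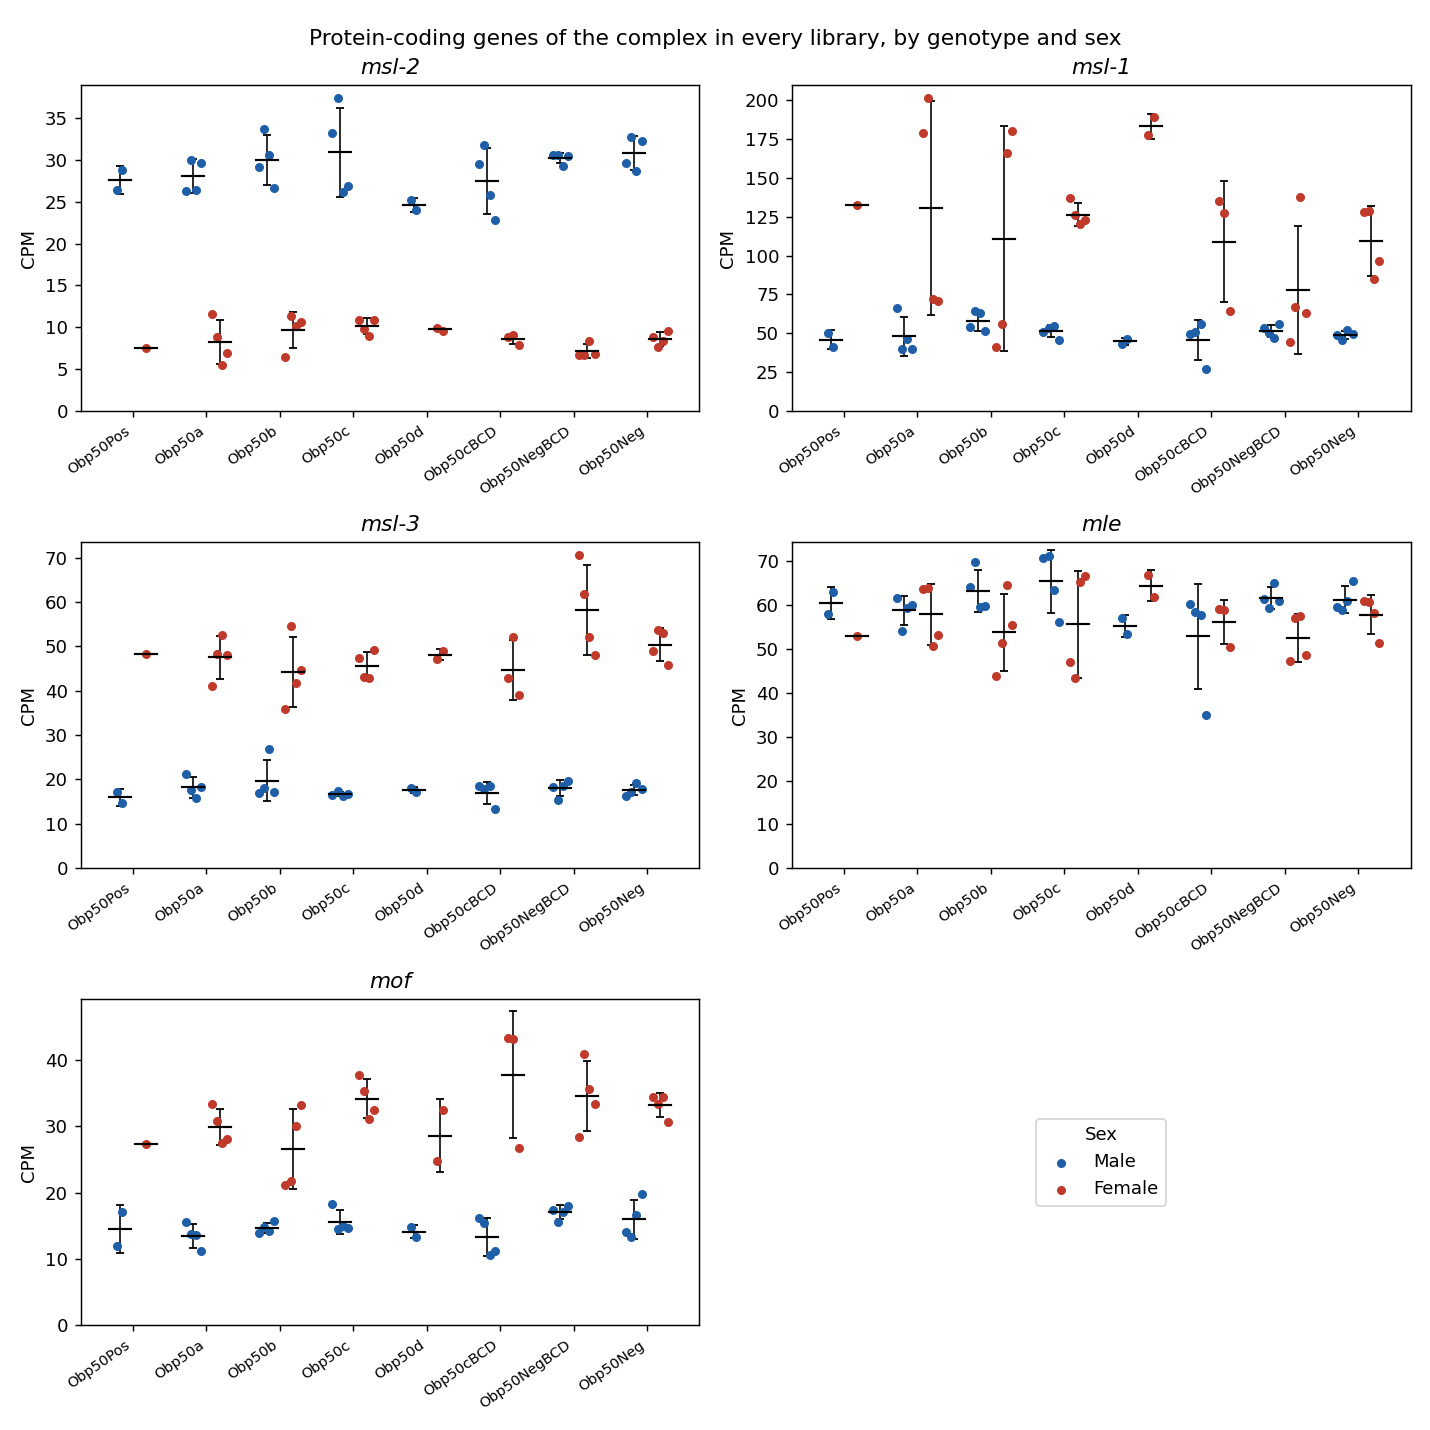
The 5 protein genes in CPM from 0, by genotype, with a point per library (male blue, female red), the group mean as a bar and its SD as whiskers. *msl-2* is higher in males in every group, *msl-3* and *mof* are lower in males in every group, *mle* overlaps, and *msl-1* spreads widely among female libraries (40.9 to 201 CPM).

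Leaving out the 11 libraries named above kept the 6 calls, with log2 differences of 5.82 for *roX1*, 4.56 for *roX2*, 1.71 for *msl-2*, -1.40 for *msl-1*, -1.52 for *msl-3* and -1.13 for *mof*. The headers of the files mark a second set and a small redo set, and the remaining libraries are called the first set here. The direction of the 6 called members was the same within the first and the second set. As a ratio of mean CPM, *roX1* differed by 5.63 (log2) among the 21 male and 18 female libraries of the first set and by 6.1 among the 5 male and 8 female libraries of the second. *roX2* differed by 3.98 and 4.88, *msl-2* by 1.76 and 1.67, and *msl-1* by -1.08 and -1.53. *msl-3* differed by -1.45 in both sets and *mof* by -1.10 and -1.17. These ratios were not matched by line. In the second set lines 1, 4 and 7 gave female libraries only, so that its ratios also hold differences between lines. The redo set held no female library among those used.

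Levels of the members were set side by side per length, in FPKM (CPM divided by the exon length in kilobases). In males the order of the medians was *roX1* (214 FPKM, range 92.7 to 285), *roX2* (32.7), *mle* (12.9), *msl-1* (10), *msl-3* (8.89), *msl-2* (7.65) and *mof* (4.92). Each gene lay above the next in all 28 male libraries, except that *msl-1* lay above *msl-3* in 22 and *msl-3* above *msl-2* in 24. In females the order was *msl-1* (25.2 FPKM, range 8.16 to 40), *msl-3* (24.4), *mle* (12.3), *mof* (10.8), *roX1* (3.98), *msl-2* (2.3) and *roX2* (1.61). The first pair in that order could not be ranked, since *msl-1* lay above *msl-3* in 13 of 26 female libraries. *mle* lay above *mof* in 20, *roX1* above *msl-2* in 24 and *msl-2* above *roX2* in 18 of 26.

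**Figure D3:**
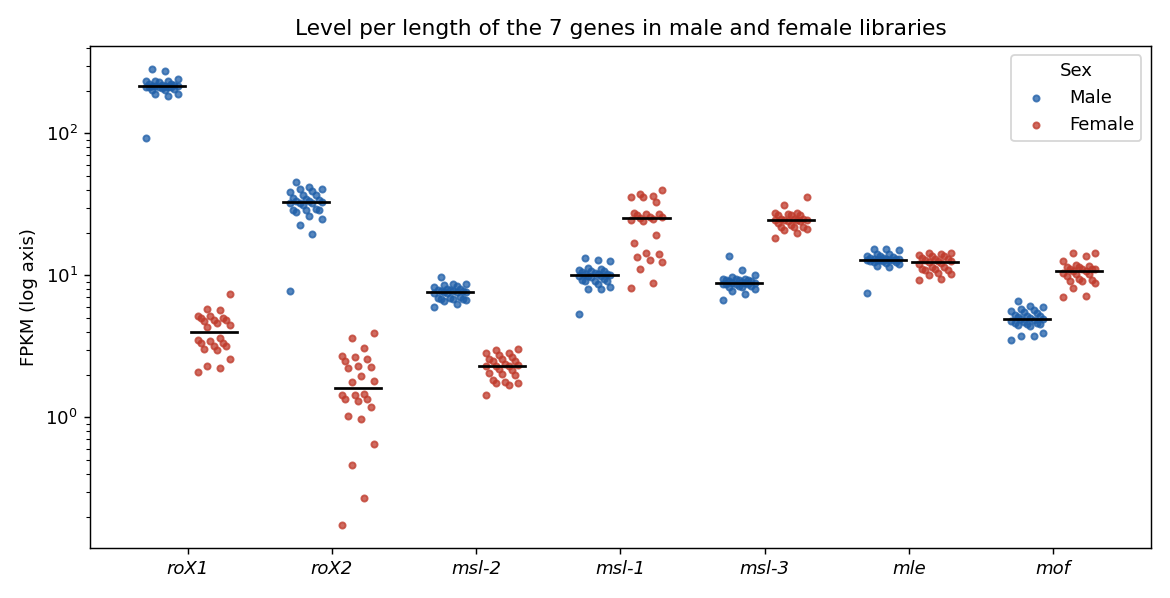
Level per length of the 7 genes (FPKM, log axis), with a point per library (male blue, female red) and the median as a bar. In males the roX RNAs lead (medians 214 and 32.7 FPKM), while in females *msl-1* and *msl-3* lead (25.2 and 24.4 FPKM) and *msl-2* and *roX2* are lowest.

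Ratios of members within a library describe how the parts stand to each other. *roX1* exceeded *roX2* by a median of 7.03 times per length in males (range 4.51 to 11.9), against 2.4 times in females (range 0.988 to 20.6). The female range was the wider, with the male range inside it. Its upper end came from Obp50a library 62_S42, where *roX2* rested on 6 counts. The mean log2 ratio was 1.37 higher in males (permutation test of 100000 draws, adjusted p = 1e-05 over 6 ratios, the smallest these draws can give). The ratio of *msl-2* to *msl-1* had a median of 0.761 in males (range 0.518 to 1.11), against 0.0985 in females (range 0.0573 to 0.266). *msl-2* stood to *msl-3* at a median of 0.841 in males and 0.097 in females, to *mof* at 1.48 in males and 0.222 in females, and to *mle* at 0.58 in males and 0.179 in females. For the 4 ratios with *msl-2* on top the sexes did not overlap, and each had the same adjusted p as the roX ratio. The ratios are built from the same values as the differences of single members given above, so their tests are not separate evidence. *msl-1* stood to *msl-3* at a median of 1.12 in males and 1 in females, a log2 difference of 0.334 (adjusted p = 0.02). Libraries of 1 line were taken as independent in these tests.

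Within single genotypes, of 56 tests, 7 members in 8 genotypes, 47 were called: *roX1*, *roX2* and *msl-2* higher in males and *msl-3* and *mof* lower in males in 8 of 8 genotypes each, *msl-1* lower in males in 7, and *mle* in 0 (0 with an unadjusted p under 0.05). The count was 51 with DESeq2. In Obp50Pos, where 6 of the calls were made, females had 1 library, which is assumed to vary like the other groups. The members called in every genotype were thus 5 of 7, beside 38.6% of all genes. Of all genes, 46.1% were called in Obp50Pos, 54.2% in Obp50d, 61.3% in Obp50b, 66% in Obp50c, 67.3% in Obp50a, 68.3% in Obp50cBCD, 69.8% in Obp50NegBCD and 65.2% in Obp50Neg. Differences between males and females ranged over genotypes from 5.51 to 6.29 (log2) for *roX1*, from 3.65 to 6.38 for *roX2* and from 1.33 to 2.08 for *msl-2*. They ranged from -2.03 to -0.60 for *msl-1*, from -1.69 to -1.16 for *msl-3*, from -1.50 to -0.85 for *mof* and from -0.22 to 0.24 for *mle*. The exception for *msl-1* was Obp50NegBCD (log2 -0.60 ± 0.329 SE, adjusted p = 0.105, edgeR), where female libraries held 44.5, 67.1, 138 and 62.8 CPM. Whether the difference between the sexes itself changed with genotype was tested as an interaction against Obp50Neg. None of 49 tests called a member in edgeR, DESeq2 or the mixed model, and 1 had an unadjusted p under 0.05 in edgeR (*roX2* in Obp50d, log2 2.22 ± 0.678 SE, adjusted p = 0.596). Of all genes, 0.421% were called in at least 1 of these 7 interactions.

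**Figure D4:**
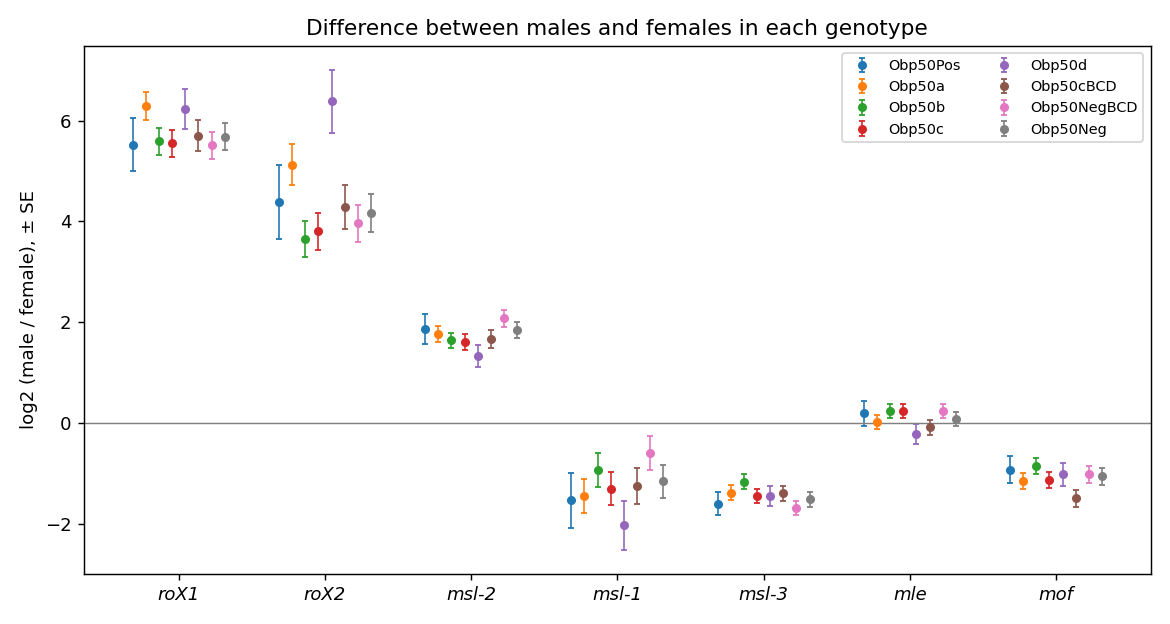
Difference between males and females (log2, with SE) for each member in each of the 8 genotypes from edgeR's fit. All 8 points of *roX1*, *roX2* and *msl-2* lie above 0 and all 8 of *msl-1*, *msl-3* and *mof* below 0; the largest for *roX2* is Obp50d (6.38).

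The second question was whether the version of the *Obp50* cluster moved the members within a sex. In males no difference was detectable. Of 63 tests (9 genotype contrasts and 7 members), edgeR, DESeq2 and the mixed model called 0, and 4 had an unadjusted p under 0.05 in edgeR. At least 1 of these contrasts called 1.89% of all genes. A joint test over the 8 male genotypes called no member either (0 with an unadjusted p under 0.05), beside 2.98% of all genes. The 4 unadjusted results all involved Obp50cBCD, which holds J3_S53. They were *mof* (log2 -0.35) and *roX2* (log2 -0.84, adjusted p = 0.197) against Obp50NegBCD, and *mle* (log2 -0.31) and *roX1* (log2 -0.53, adjusted p = 0.357) against Obp50c.

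Male levels were also taken by genotype. *roX1* averaged 1305 ± 25.5 CPM in Obp50Pos (SD, n = 2), 1218 ± 75.9 in Obp50a, 1171 ± 46.5 in Obp50b, 1344 ± 210.1 in Obp50c, 1135 ± 31.9 in Obp50d (n = 2), 929 ± 292 in Obp50cBCD, 1127 ± 72.1 in Obp50NegBCD and 1201 ± 35.6 in Obp50Neg (n = 4 where not given). The Obp50cBCD mean rests on 1001, 1177, 1033 and 507 CPM, of which the last is J3_S53. *roX2* averaged 50.5 ± 6.51 CPM in Obp50Pos (n = 2), 41.1 ± 4.31 in Obp50a, 37.5 ± 6.78 in Obp50b, 47.9 ± 5.72 in Obp50c, 41.3 ± 2.47 in Obp50d (n = 2), 31.8 ± 16.5 in Obp50cBCD, 57 ± 3.86 in Obp50NegBCD and 45.4 ± 4.76 in Obp50Neg. Male *msl-2* means lay between 24.6 (Obp50d) and 30.9 CPM (Obp50c), and those of *msl-1* between 44.8 (Obp50d) and 58.2 CPM (Obp50b). The highest genotype mean exceeded the lowest by 1.24-fold for *msl-3* and *mle* and by 1.27-fold for *mof*. None of these orders passed the joint test.

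In females, 2 of 63 genotype tests called a member, and 12 had an unadjusted p under 0.05. At least 1 of the 9 contrasts called 17.6% of all genes, 2 of 7 members among them. *roX2* was lower in Obp50d than in Obp50Neg. Its values were 0.632 and 0.369 CPM in Obp50d females, against 2.68, 1.84, 3.13 and 2.47 CPM in Obp50Neg females. The groups did not overlap, and the Obp50d values rest on 12 and 9 counts (exact 95% Poisson intervals of 0.326 to 1.1 CPM and 0.169 to 0.701 CPM, for counting error only). The log2 difference was -2.36 (adjusted p = 0.0315, edgeR), where 0.663% of genes were called lower. This call was lost when either Obp50d library was left out (adjusted p = 0.404 without 64_S44 and 0.194 without 67_S36), without Obp50Neg library 5_S5 (0.0741), without the 11 libraries (0.0598), and with line as a random block in limma-voom (0.47). Over the 53 fits that each left out 1 library it was lost in 24, with adjusted p between 0.0164 and 0.404. All Obp50d flies are of line 7.

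*msl-3* was lower in Obp50b than in Obp50NegBCD females. Its level was 35.9, 54.5, 41.8 and 44.7 CPM in Obp50b females, against 70.6, 61.9, 52 and 48 CPM in Obp50NegBCD females. The groups overlapped. The log2 difference was -0.40 (adjusted p = 0.0492, edgeR), beside 8.27% of genes called lower in the same contrast. It fell short of the threshold without the 11 libraries (adjusted p = 0.124), with DESeq2 (0.064) and its size factors in edgeR (0.0924), and in 43 of 53 fits that each left out 1 library, with adjusted p between 0.0116 and 0.287 over the 53 fits. The TMM scaling takes 1 library as its reference, here the female Obp50b library 54_S31. With the second-nearest library, 33_S25, as the reference, the *msl-3* difference was -0.25 (adjusted p = 0.199) and the *roX2* difference above -2.16 (adjusted p = 0.0516, edgeR). In the same contrast of Obp50b with Obp50NegBCD, *msl-2* was not called in the reported fit (adjusted p = 0.0586) but was called higher in Obp50b with that reference (log2 0.57, adjusted p = 0.0363), with DESeq2 (0.51, adjusted p = 0.01), with its size factors in edgeR (0.51, adjusted p = 0.0214) and with genes kept at a mean count of at least 10 (adjusted p = 0.0427). With the male Obp50d library 66_S35 as the reference, the calls of *msl-3* (log2 -0.465, adjusted p = 0.0149) and *roX2* (-2.36, adjusted p = 0.0293, edgeR) held. *mof* was then called lower in Obp50b than in Obp50NegBCD as well (log2 -0.44, adjusted p = 0.0319, edgeR).

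Over the 8 female genotypes jointly, *roX1* (adjusted p = 0.0174, edgeR) and *roX2* (adjusted p = 0.000811) were called and the 5 protein genes were not, beside 24.6% of all genes. *roX1* averaged 28.3 CPM in the single Obp50Pos library, 15.6 ± 3.23 in Obp50a, 24.4 ± 3.86 in Obp50b, 28.8 ± 9.9 in Obp50c, 15.1 ± 3.46 in Obp50d (SD, n = 2), 17.9 ± 0.539 in Obp50cBCD (n = 3), 24.6 ± 4.15 in Obp50NegBCD and 23.4 ± 8.4 in Obp50Neg (n = 4 where not given). *roX2* was at 2.41 CPM in the Obp50Pos library, and averaged 1.23 ± 0.816 in Obp50a, 2.94 ± 1.67 in Obp50b, 3.43 ± 0.54 in Obp50c, 0.501 ± 0.185 in Obp50d (n = 2), 1.65 ± 0.34 in Obp50cBCD (n = 3), 3.64 ± 1.41 in Obp50NegBCD and 2.53 ± 0.534 in Obp50Neg. Both RNAs were lowest in Obp50d, with Obp50a next for *roX1* and for *roX2*. The second set holds each of the female Obp50a libraries. With the set as a term both calls held (adjusted p = 0.0409 and 0.00751), and they were lost when line was a random block, when counts were summed by line and in the mixed model. DESeq2 kept both and also called *msl-2* jointly (adjusted p = 0.0319, likelihood ratio test).

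The spread among females was also described by line, as means of log2 values turned back to CPM. The highest female line mean of *roX2* exceeded the lowest by 9.73-fold (4.48 CPM in line 26, 0.46 CPM in line 1), and that of *roX1* by 2.73-fold (35.8 CPM in line 24, 13.1 CPM in line 11). Between-line SD of *roX2* in females was 1.01 on the log2 scale, beside 0.509 within lines. In Obp50a, female *roX2* was at 0.885 and 0.239 CPM in line 1, against 1.96 and 1.84 CPM in line 11. In Obp50b it was at 1.39 and 1.78 CPM in line 4, against 3.65 and 4.96 CPM in line 19.

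Among the protein genes *msl-1* had the widest spread of line means, in females. These means ran from 47.9 CPM (line 19) to 190 CPM (line 1), 3.96-fold, with an SD of 0.644 (log2) between and 0.285 within lines. In males the line means spanned 1.52-fold (SD 0.158 between and 0.274 within lines). In Obp50a, female *msl-1* was at 179 and 201 CPM in line 1, against 72.3 and 70.7 CPM in line 11. In Obp50b it was at 166 and 180 CPM in line 4, against 40.9 and 56 CPM in line 19. The same 2 lines, 1 and 4, were the lower ones for *roX2*. In both genotypes 1 line lay above and 1 below the female median (127 CPM). Pairs of the same line could also part, as in line 27 with 138 and 62.8 CPM.

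Over the 14 lines, male and female values of each line were set against each other. *roX1*, *roX2* and *msl-2* were higher in males in 14 of 14 lines, and *msl-3* and *mof* lower in males in 14 of 14. *msl-1* was lower in males in 13 of 14, with line 19 the exception (59 CPM in males, 48.5 CPM in females). *mle* was higher in males in 8 lines and lower in 6, with a range from -0.22 (line 7) to 0.65 (line 24) on the log2 scale.

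Markers of the ovary varied among female lines. The germline transcripts *nos*, *osk* and *bcd* summed to between 286 and 1840 CPM in females. Over the 14 female line means, *msl-1* had a Pearson r of 0.463 (adjusted permutation p = 0.25) and a Spearman rho of 0.701 (adjusted permutation p = 0.036) with this sum, out of 21 relations computed. Without the 2 lines farthest in the marker sum r was 0.619, and over the 8 lines in the first set it was 0.517. *msl-2* had r = 0.511 (adjusted permutation p = 0.25) and rho = 0.697 (adjusted permutation p = 0.036) with the same sum, r = 0.704 without the 2 farthest lines and 0.51 in the first set. With the follicle cell transcripts (9 of 9 measured, 3660 to 35900 CPM in females) *msl-2* had r = -0.695 (adjusted permutation p = 0.084) and rho = -0.701 (adjusted permutation p = 0.036), with r = -0.691 without the 2 farthest lines and -0.779 in the first set. With the yolk transcripts *msl-3* had r = 0.482 (adjusted permutation p = 0.25) and rho = 0.732 (adjusted permutation p = 0.036), with r = 0.594 without the 2 farthest lines and 0.464 in the first set. The part of these transcripts in the differences between lines was not tested.

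Among themselves the members were compared over the 14 lines in each sex, 42 relations in all. None had an adjusted permutation p under 0.05 by Spearman's rho, and 8 had one by Pearson's r. In females *msl-1* and *roX2* were inversely related (r = -0.683, adjusted permutation p = 0.047, and rho = -0.666, adjusted permutation p = 0.1), with r = -0.563 without the 2 lines farthest in *msl-1* and -0.688 over the 8 lines in the first set. *msl-1* and *msl-2* were directly related in females (r = 0.669, adjusted permutation p = 0.047, and rho = 0.644, adjusted permutation p = 0.1), with r = 0.725 without 2 lines and 0.591 in the first set. The other 6 relations were in males. The smallest adjusted p was that of *msl-2* and *mle* (r = 0.827, adjusted permutation p = 0.01, and rho = 0.574, adjusted permutation p = 0.13), with r = 0.683 without the 2 lines farthest in *msl-2* and 0.819 over the 10 lines in the first set. *mle* and *roX1* had r = 0.878 (adjusted permutation p = 0.036) and rho = 0.648 (adjusted permutation p = 0.1), with r = 0.732 in the first set, which holds line 24 and not line 5. Without both of these lines, the 2 farthest in *mle*, r was 0.178, so that the relation rests on them. *mof* and *roX2* had r = 0.753 (adjusted permutation p = 0.036), with 0.549 without 2 lines and 0.69 in the first set. *msl-1* had r = 0.738 with *mle* and 0.682 with *mof*, and *mle* had r = 0.703 with *mof*, which without 2 lines were 0.529, 0.23 and 0.376. Line 5, which holds J3_S53, had the lowest male mean of every member.

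Regulators of *msl-2* RNA, DNA and chromatin partners, genes of the separate NSL complex and relatives were described from a list of 19, all of them measured. It is called the partner list below, although not all of its genes act with the MSL complex. In males 2 were called higher and 14 lower, and 3 were not called, beside the shares of 43.6% and 39.4% of all genes given above. The median log2 difference of the list was -0.72, beside 0.10 over all genes. The genes with the largest differences were *Pof*, *Top2*, *wds*, *MRG15*, *Hrb27C*, *Sxl*, *dgt1* and *Clamp*.

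Regulators of *msl-2* RNA came first. *Sxl*, whose protein blocks *msl-2* in females, was at 101 to 410 CPM (median 207) in males, against 303 to 1050 CPM (median 449) in females. Its gene-level RNA was 2.24-fold lower in males (log2 -1.17 ± 0.102 SE, adjusted p = 3.37e-14, edgeR) with overlapping ranges. Counts per gene do not separate the male and the female splice forms. *Hrb27C*, which binds *msl-2* RNA with Sxl, was 2.28-fold lower in males and *Unr*, the partner of Sxl in translational repression, 1.58-fold lower. *how*, also listed as a regulator of *msl-2* RNA, was higher in males by 1.31-fold (168 ± 22 against 129 ± 41.6 CPM, SD, n = 28 and n = 26).

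Of 7 DNA and chromatin partners, 4 were lower in males and 3 (*Trl*, *JIL-1* and *Set2*) were not called. *Clamp*, whose protein binds the GA-rich elements on which the complex is recruited, was at 31.2 to 54.8 CPM (median 48.7) in males, against 68.7 to 114 CPM (median 86.2) in females. The sexes did not overlap, and *Clamp* was 1.82-fold lower in males (log2 -0.87 ± 0.0563 SE, adjusted p = 1.58e-18, edgeR). *Top2*, a topoisomerase gene, was 4.1-fold lower in males, also without overlap. *Iswi* and *Mtor* were 1.66-fold and 1.65-fold lower. *JIL-1*, which encodes a histone H3 kinase enriched on the male X, was at 133 ± 15.9 CPM in males and 138 ± 47.9 CPM in females (SD, n = 28 and n = 26, adjusted p = 0.453, edgeR).

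The NSL complex shares MOF with the MSL complex and acts at promoters in both sexes. All 6 of its listed genes were lower in males. The largest change was in *wds* (3.96-fold), at 9.72 to 20.7 CPM (median 15.6) in males, against 40 to 89.9 CPM (median 57.1) in females, and *dgt1* was 2.08-fold lower. *Rcd5*, *nsl1*, *Rcd1* and *MBD-R2* were between 1.41-fold and 1.73-fold lower. Of the relatives of the complex, *MRG15*, a chromodomain relative of *msl-3*, was 2.69-fold lower in males. *Pof*, whose protein coats the fourth chromosome, went the other way and was 10.1-fold higher in males (246 ± 26.7 against 25.2 ± 4.59 CPM, SD, n = 28 and n = 26, adjusted p = 4.22e-32, edgeR), without overlap.

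**Figure D5:**
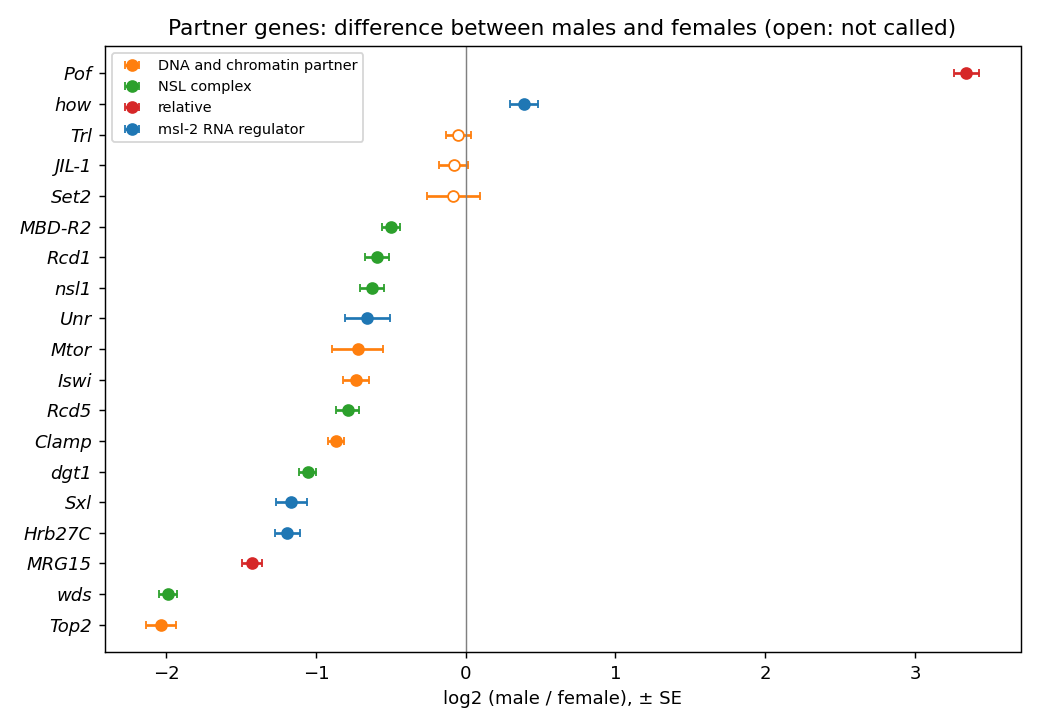
Difference between males and females (log2, with SE) for the 19 genes of the partner list, ordered by size, coloured by role. *Pof* (3.34) and *how* (0.39) are called higher in males, 14 genes lower in males down to *Top2* (-2.03), and the 3 open points were not called.

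The X chromosome, on which the complex acts, was described by its genes. The median difference between males and females was -0.25 (log2) over 2425 X-linked genes, against 0.28 over 3031 genes of 2L, 0.06 over 3139 of 2R, 0.17 over 3099 of 3L and 0.15 over 3771 of 3R. The quartiles of the X were -1.17 and 0.992, and 36.1% of its genes were called higher and 48.6% lower in males. Among the X-linked members *roX1* and *roX2* lay above the upper quartile, and *mof* lay between the quartiles. Since whole flies carry testis and ovary, the tissue in which these differences arise cannot be told apart.

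Genes whose pattern most resembled each member were found over the 54 libraries after taking out the mean of each sex, and are given as a description (libraries of a line, and of a set, share their source). For *msl-1* they were *CG8878* (r = 0.965), *Ulp1* (0.963) and *Mtor* (0.962). For *mle* they were *Saf-B* (0.836), *jar* (0.817) and *fl(2)d* (0.809), and for *mof* *Rab32* (0.811), *SMSr* (0.802) and *Cand1* (0.796). *msl-2* most resembled *pHCl-1* (0.764), *Mef2* (0.763) and *nwk* (0.755), and *msl-3* *His2Av* (0.717), *wmd* (0.715) and *mbf1* (0.706). The genes were *CG4661* (0.672), *CG32192* (0.666) and *CG31245* (0.663) for *roX1*, and *Tom20* (0.748), *CG30392* (0.731) and *RpS14a* (0.729) for *roX2*. Of these 21 genes *Mtor*, a nuclear pore gene, also stood in the partner list.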

How the data were processed

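RNA of whole flies was measured in 56 libraries. The authors aligned the reads with GSNAP and counted fragments per gene over exons with featureCounts 1.6.4, without strand, on annotation release 6.13; fragments that overlap several genes were not assigned. The deposited values are these counts without normalization, and every column matched a sample.

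The 54 libraries of the study's own selection were analysed in R 4.3.3. The study's filter kept 15675 of 17490 genes: those detected in 25% or more of these libraries whose median was 2 or more counts. edgeR 4.0.16 fitted a mean per sex and genotype with TMM scaling and its quasi-likelihood test, and p-values were adjusted by Benjamini-Hochberg over all genes kept. CPM use TMM-scaled totals, and FPKM divide them by exon length. Replicate pairs differed by more than sampling noise (chi-square per degree of freedom 14.6 to 177 over 26 pairs). Total counts ranged from 14638498 to 53517693, and counting intervals cover counting error only.

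Alternatives were DESeq2 1.42.0 and its size factors, other filters, all 56 libraries, the set as a term, each sex alone, 4 treatments of line (counts summed by line, a fixed block, limma 3.58.1 voom with a random block, the study's mixed model in lme4 1.1.37 on GeTMM values) and each library left out. On simulated counts the procedure recovered 193 of 200 genes changed 2-fold between the sexes on 15675 genes, with 23 others called. The simulated libraries were drawn independently, with no effect of line or set, so they cannot give the error rate in these data.

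The members, the partner and marker lists and the tests were chosen with earlier results of these data known. All 7 members were named; of the partners, the 8 with the largest called change, *Sxl* and *Clamp*, and others to fill out each role; and for each member the 3 genes with the highest correlation of log2 (CPM + 1), and genes whose exons overlap it. Partners beyond that rule were named after their values were seen.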

Additional observations from a re-analysis of the deposited data

Results flagged for a closer look

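In each group of 4 libraries, the highest or lowest value was set against Dixon's criterion. Of 77 groups of a member, sex and genotype, 6 were singled out, and chance alone picks about 1 group in 20. *msl-2* was at 8.36 CPM in female Obp50NegBCD library 19_S11, with the others between 6.73 and 6.85 CPM. In male Obp50NegBCD library 23_S40 *msl-2* was at 29.3 CPM, with the others between 30.5 and 30.6 CPM. *msl-3* was at 26.8 CPM in male Obp50b library 59_S21, with the others between 17 and 18 CPM; that library also held 1558 CPM of yolk and 96.3 CPM of germline transcripts, whose part in the value was not tested. In male Obp50cBCD library J3_S53 *msl-3* was at 13.3 CPM, with the others between 17.8 and 18.4 CPM, and *mle* at 35 CPM, with the others between 57.8 and 60.2 CPM. *mof* was at 18.3 CPM in male Obp50c library 43_S15, with the others between 14.4 and 15 CPM.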

How the results depend on the processing

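The 3 members higher and 3 lower in males were called under all 66 alternatives. *mle* was called as well with DESeq2's size factors and with DESeq2 (0.29 in both), where the median of all genes was 0.30. Calls within genotypes numbered between 42 and 51 (47 in the reported fit). Genotype contrasts in males, the joint test in males and the interactions called 0 members under every alternative. The count of 2 calls in the genotype contrasts of females was 1 with all 56 libraries, which is another call (*roX1* lower in Obp50cBCD than in Obp50c, log2 -0.90, adjusted p = 0.0323), 0 with the set as a term, 0 with counts summed by line, 0 with line as a random block, 1 in the mixed model (*msl-3*), 0 with each sex alone, and between 0 and 4 with 1 library left out. It stayed at 2 with DESeq2 and with its size factors in edgeR, where *roX2* in Obp50d was kept and *msl-2* was called in place of *msl-3* in Obp50b. Of alternatives chosen after seeing the data, leaving out the 11 libraries gave 0 and the second-nearest TMM reference library 1 (*msl-2* in Obp50b). A male TMM reference library, also chosen then, kept *roX2* in Obp50d and *msl-3* in Obp50b and added *mof*. *mof* was lower in Obp50b than in Obp50NegBCD (log2 -0.44, adjusted p = 0.0319, edgeR). The same call was added without the filter (log2 -0.43, adjusted p = 0.0408, edgeR). With genes kept at a mean count of at least 10, *msl-2* in Obp50b was added instead. TMM kept its reference in 29 of the 53 fits with 1 library left out and took another in 24; *roX2* in Obp50d lost its call in 3 of the 29 and 21 of the 24, and *msl-3* in Obp50b in 19 of the 29 and 24 of the 24. DESeq2 kept the 2 joint calls in females and added *msl-2* (adjusted p = 0.0319, likelihood ratio test). The 2 joint calls in females became 0 with counts summed by line, with line as a random block, in the mixed model and with each sex alone, and between 1 and 3 with 1 library left out (1 without female Obp50cBCD library 25_S42 or 26_S43, or Obp50b library 54_S31, and 3, with *msl-2* added, without Obp50a library 61_S41). The causes of these losses were not tested. Pairing male and female libraries by line, as a fixed block, changed no call between the sexes. *roX2* in females rested on 6 to 160 counts, with the largest relative counting error in the libraries with the fewest.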

Other observations

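The 2 female libraries left out of the comparisons gave the following values. The Obp50cBCD library 55_S45 was at 12.6 CPM of *roX1*, 3.67 of *roX2*, 7.04 of *msl-2*, 40.1 of *msl-1*, 40.9 of *msl-3*, 26.4 of *mof* and 43.9 of *mle*. The Obp50Pos library J2_S52 was at 16.3 CPM of *roX1*, 3.09 of *roX2*, 12.9 of *msl-2*, 157 of *msl-1*, 28 of *msl-3*, 34.9 of *mof* and 51 of *mle*. Against the range of the 26 female libraries used, *msl-1* lay below it in 55_S45, and in J2_S52 *msl-3* lay below it and *msl-2* above it.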
